A study of Mus musculus with 4 samples.

Results

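Integrins, laminins and the other proteins that hold a keratinocyte to its basement membrane were followed at the RNA level across 4 libraries. The members were chosen by a rule on gene symbols that uses no values, though earlier results of these data were known. They are the integrin subunits, the laminin chains, nidogen, perlecan (Hspg2), agrin, dystroglycan (Dag1), the hemidesmosome proteins dystonin, plectin and Cd151, the hyaluronan receptor Cd44, and the main proteins of focal adhesions. The rule found 45 genes among the 13102 in the deposited tables. It fits 52 annotated protein-coding genes, and 7 of these were not used here (Fermt3, Ilk, Itga11, Itgb2, Itgb7, Lamc3 and Nid2).

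The cells were primary epidermal keratinocytes, the main cell of the epidermis, isolated with dispase and trypsin from neonatal C57BL/6 mice and grown for 48 h. There was 1 library of Il17rc knockout (KO) cells given interleukin-17A (IL-17A) at 100 ng/mL for 8 h, 1 of Il17rd KO cells given the same, 1 of wild-type (WT) cells given the same, and 1 of WT cells left untreated. IL-17A is an inflammatory cytokine of the skin, and Il17rc and Il17rd encode members of its receptor family. The study asked, by its title, about Il17rd as a receptor for IL-17A. How the knockout alleles were made, and how many mice of which sex stand behind a library, was not given in the sources used here. There is no untreated KO library, so a difference of genotype before treatment and a difference in the response cannot be told apart.

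Integrins are receptors made of an alpha and a beta subunit, and the pairing sets the ligand. In the basal layer of the epidermis, integrin α6β4 together with plectin, dystonin and Cd151 forms hemidesmosomes, which tie the keratin filaments to laminin-332 (whose chains include Lama3 and Lamb3) in the basement membrane. Integrins with the beta subunit Itgb1, such as α3β1 for laminin and α2β1 for collagen, form focal adhesions, where talin and kindlin switch the receptor on and vinculin, paxillin and zyxin join it to actin. Several of these genes are known to rise when keratinocytes leave the resting state and migrate over a wound.

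Since each group is a lone library, differences could not be checked against replicates and p-values were left out. A gene was called higher or lower when its ratio of scaled counts was at least 2-fold and the exact 95% interval of the ratio excluded 1, among 12934 genes that averaged 1 CPM or more (counts per 1000000 of the scaled library). Intervals cover counting error only, so a call describes a pair of libraries and dish-to-dish variation can produce it. The total counts lay between 19711866 and 19904695 per library. Il17rc had 439 counts in IL-17A Il17rc KO, 1718 in IL-17A Il17rd KO, 1152 in IL-17A WT and 2729 in untreated WT. Il17rd had 150, 5, 265 and 252 counts in the same order of libraries, and which exons either allele lacks was not given in the sources used here. The Y-linked gene Ddx3y had 749, 2, 233 and 654 counts in that order, so the libraries also differed in sex-linked RNA. All 8 keratinocyte markers were in the tables, summing to 38093, 40586, 34686 and 49919 CPM in that order. The sum of 10 markers of differentiated keratinocytes was 2430, 2824, 575 and 6480 CPM, and 12 of 16 fibroblast markers summed to 69.4, 94.2, 36.4 and 122 CPM. These marker levels differed between the libraries, as did the members described below, and the part of the marker levels in the results was not tested. In bulk RNA, fewer cells of a type and less RNA per cell cannot be told apart.

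The members as a whole took a larger part of the IL-17A WT library than of the others. Their scaled counts summed to 1.55% of the IL-17A Il17rc KO library, 1.66% of the IL-17A Il17rd KO library, 2.63% of the IL-17A WT library and 1.71% of the untreated WT library. All 45 passed the filter on low values, and 43 exceeded 1 CPM in all 4 libraries. Itga10 exceeded it in IL-17A Il17rd KO and untreated WT, and Lama1 in IL-17A Il17rd KO and IL-17A WT. Every gene in the deposited tables exceeds 1 CPM in at least 2 libraries, so these members entered only through the libraries where they were high and had to differ between libraries.

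In IL-17A WT against untreated WT, 12 of the 45 members (26.7%) were called higher and 6 (13.3%) lower. Over all genes tested, 8.97% were called higher and 10.7% lower. The members' median log2 ratio was 0.52, and that of all genes was 0.00. Higher were Cd44, Fermt1, Fermt2, Itga2, Itga3, Itga7, Itga8, Lama1, Lama3, Lama4, Lamb1 and Parva. Lower were Itga1, Itga9, Itga10, Itgb8, Lama2 and Lamb2. These counts include Lama1 (higher) and Itga10 (lower), which the filter of the deposited tables required to differ between libraries.

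In IL-17A Il17rc KO against IL-17A WT, 12 members (26.7%) were called lower and 2 (4.44%) higher, where 4.84% of all genes were lower and 6.22% higher. Lower were Fermt1, Itga2, Itga3, Itga7, Itga8, Itgb6, Lama1, Lama3, Lama4, Lamb1, Lamb3 and Nid1, and higher were Itga1 and Itgb8. The median was -0.70 for the members and 0.04 for all genes. In IL-17A Il17rd KO against IL-17A WT, 8 members (17.8%) were lower and 3 (6.67%) higher, beside 3.73% and 6.27% of all genes, with medians of -0.54 and 0.01. Lower were Cd44, Fermt1, Itga2, Itga3, Lama1, Lama3, Lamb1 and Lamb3, and higher were Itga1, Itga10 and Itgb8. Both of these comparisons and the treatment comparison use the same IL-17A WT library, so they are not independent of each other. The filter of the deposited tables also favoured the calls of Lama1 in IL-17A Il17rc KO and of Itga10 in IL-17A Il17rd KO. Lama1 passed it through IL-17A WT and not IL-17A Il17rc KO, and Itga10 through IL-17A Il17rd KO and not IL-17A WT. Those calls are no evidence about the members.

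IL-17A Il17rc KO against IL-17A Il17rd KO gave 4 members (8.89%) lower and 0 higher, beside 2.75% and 1.49% of all genes. The 4 include Lama1 and Itga10, which passed the deposited filter through IL-17A Il17rd KO and not through IL-17A Il17rc KO. The filter thus favoured these calls, and they are no evidence about the members. Against untreated WT, IL-17A Il17rc KO had 1 member higher (Cd44) and 4 lower (Agrn, Itga9, Itga10 and Lamb2), where 7.27% of all genes were higher and 7.00% lower. IL-17A Il17rd KO had 2 members higher (Lama1 and Lama4) and 1 lower (Lamb2) against untreated WT, beside 5.36% and 3.35% of all genes. The members' medians in these last comparisons were -0.23 for IL-17A Il17rc KO and 0.05 for IL-17A Il17rd KO. In all, 21 members (46.7%) were called in at least 1 of the 4 comparisons among treated libraries or of IL-17A WT with untreated WT, beside 24.3% of all genes tested, and 24 members in none of them. These comparisons share libraries, so their calls are not independent. The 21 also include Lama1 and Itga10, which the filter of the deposited tables required to differ between libraries.

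**Figure D1:**
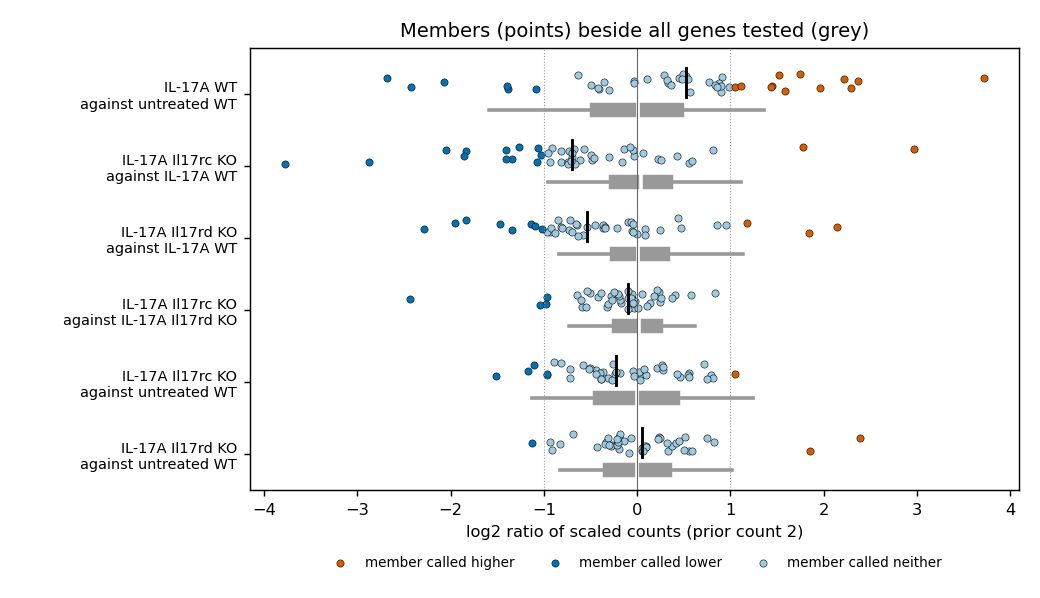
Log2 ratio of scaled counts (x axis, prior count of 2) of the 45 members, as points, in each of the 6 comparisons, with the members' median as a black line. The thick grey bar runs between the quartiles of all 12934 genes, the thin grey line between their percentiles 5 and 95, and the white tick is their median, and dotted lines mark 2-fold. The members' median lies at 0.52 in IL-17A WT against untreated WT and at -0.70 and -0.54 in the KO libraries against IL-17A WT.

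Sequence upstream of the start site is shown for 6 of these members, chosen after their values were seen, because they stand for the calls in each direction and include the neighbours Itga2 and Itga1, which were called in opposite directions. Each line gives the 250 bases before the most upstream RefSeq start (GRCm38.p6), 5′ to 3′ on the gene's strand, with any searched motif in capitals. In the GENCODE M21 annotation, which gives the gene coordinates used here, genes can start further upstream: the whole Itgb8 window, 87 bases of the Itga3 window and 59 bases of the Lamb1 window lie inside the gene.
Itga2 (chr13:114932101-114932350, minus strand): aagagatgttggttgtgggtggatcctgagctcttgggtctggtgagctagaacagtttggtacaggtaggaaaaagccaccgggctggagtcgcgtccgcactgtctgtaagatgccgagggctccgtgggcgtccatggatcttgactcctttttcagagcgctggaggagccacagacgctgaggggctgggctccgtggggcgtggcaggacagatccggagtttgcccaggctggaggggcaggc
Fermt1 (chr2:132946037-132946286, minus strand): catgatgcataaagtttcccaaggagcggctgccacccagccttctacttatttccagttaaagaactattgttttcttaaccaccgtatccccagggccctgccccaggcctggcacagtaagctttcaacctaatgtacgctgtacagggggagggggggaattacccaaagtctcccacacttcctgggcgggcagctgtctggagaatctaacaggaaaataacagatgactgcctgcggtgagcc
Lamb1 (chr12:31265043-31265292, plus strand): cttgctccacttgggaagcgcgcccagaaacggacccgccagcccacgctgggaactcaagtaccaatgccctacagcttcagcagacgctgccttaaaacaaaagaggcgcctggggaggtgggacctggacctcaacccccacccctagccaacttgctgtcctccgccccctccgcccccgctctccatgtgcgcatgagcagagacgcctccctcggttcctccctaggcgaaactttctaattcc
Itga3 (chr11:95076715-95076964, minus strand): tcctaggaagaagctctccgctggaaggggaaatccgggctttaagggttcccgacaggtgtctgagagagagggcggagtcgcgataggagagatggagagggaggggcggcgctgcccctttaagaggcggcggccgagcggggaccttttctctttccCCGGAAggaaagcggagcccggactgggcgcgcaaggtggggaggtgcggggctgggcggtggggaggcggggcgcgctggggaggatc
Itga1 (chr13:115101965-115102214, minus strand): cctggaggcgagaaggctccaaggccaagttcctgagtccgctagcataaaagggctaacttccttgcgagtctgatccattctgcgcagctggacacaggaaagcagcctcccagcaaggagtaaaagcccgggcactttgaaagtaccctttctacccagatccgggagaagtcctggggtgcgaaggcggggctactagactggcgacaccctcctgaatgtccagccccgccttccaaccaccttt
Itgb8 (chr12:119238277-119238526, minus strand): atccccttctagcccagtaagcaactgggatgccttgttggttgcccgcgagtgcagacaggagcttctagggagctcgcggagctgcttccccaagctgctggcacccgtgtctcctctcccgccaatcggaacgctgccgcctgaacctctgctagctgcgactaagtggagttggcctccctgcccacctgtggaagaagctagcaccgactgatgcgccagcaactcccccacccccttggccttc

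RefSeq promoters were at hand for 31 of the 45 members, and 5 motifs were searched on both strands of the 250 bases. Shares are given over all 27025 promoters and over the 9516 whose gene is in the deposited tables. The AP-1 motif TGANTCA lay in 1 member (Zyx, 3.23% of the 31), in 6.85% of all and in 4.4% of those in the tables. The ETS motif CCGGAA lay in 3 members (Itga3, Lims1 and Nid1, 9.68%), in 12.3% of all and in 23.0% of those in the tables. In Itga3 it sits 89 bases before the RefSeq start. The TEAD motif GGAATG lay in 4 members (Itga10, Itgb1, Nid1 and Vcl, 12.9%), in 12.6% of all and in 10.7% of those in the tables. In Nid1 the TEAD match overlaps the ETS match. The NF-kB consensus lay in 1 member (Vcl), in 7.03% of all and in 8.67% of those in the tables. The TATA motif TATAAA lay in 0 members, in 13% of all and in 6.19% of those in the tables. Of the 6 windows printed, Itga3 alone holds a searched motif. A match is a run of letters and not a shown binding site, and a window without one says nothing of the factor.

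Among the members, integrin subunits and laminin chains of the basal layer stood high per unit of length. The deposited FPKM values, averaged over the 4 libraries, put Itgb1 at 240, Itgb4 at 230, Itga3 at 145 and Lamb3 at 130. Cd44 (121), Lama3 (108) and Dag1 (107) followed. At the other end, Itga4, Itga1, Itga8, Itga9, Lama2, Itga10 and Lama1 averaged between 0.239 and 0.413 FPKM. The order is over libraries of different conditions, and neighbours such as Itgb1 and Itgb4 change places between them.

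**Figure D2:**
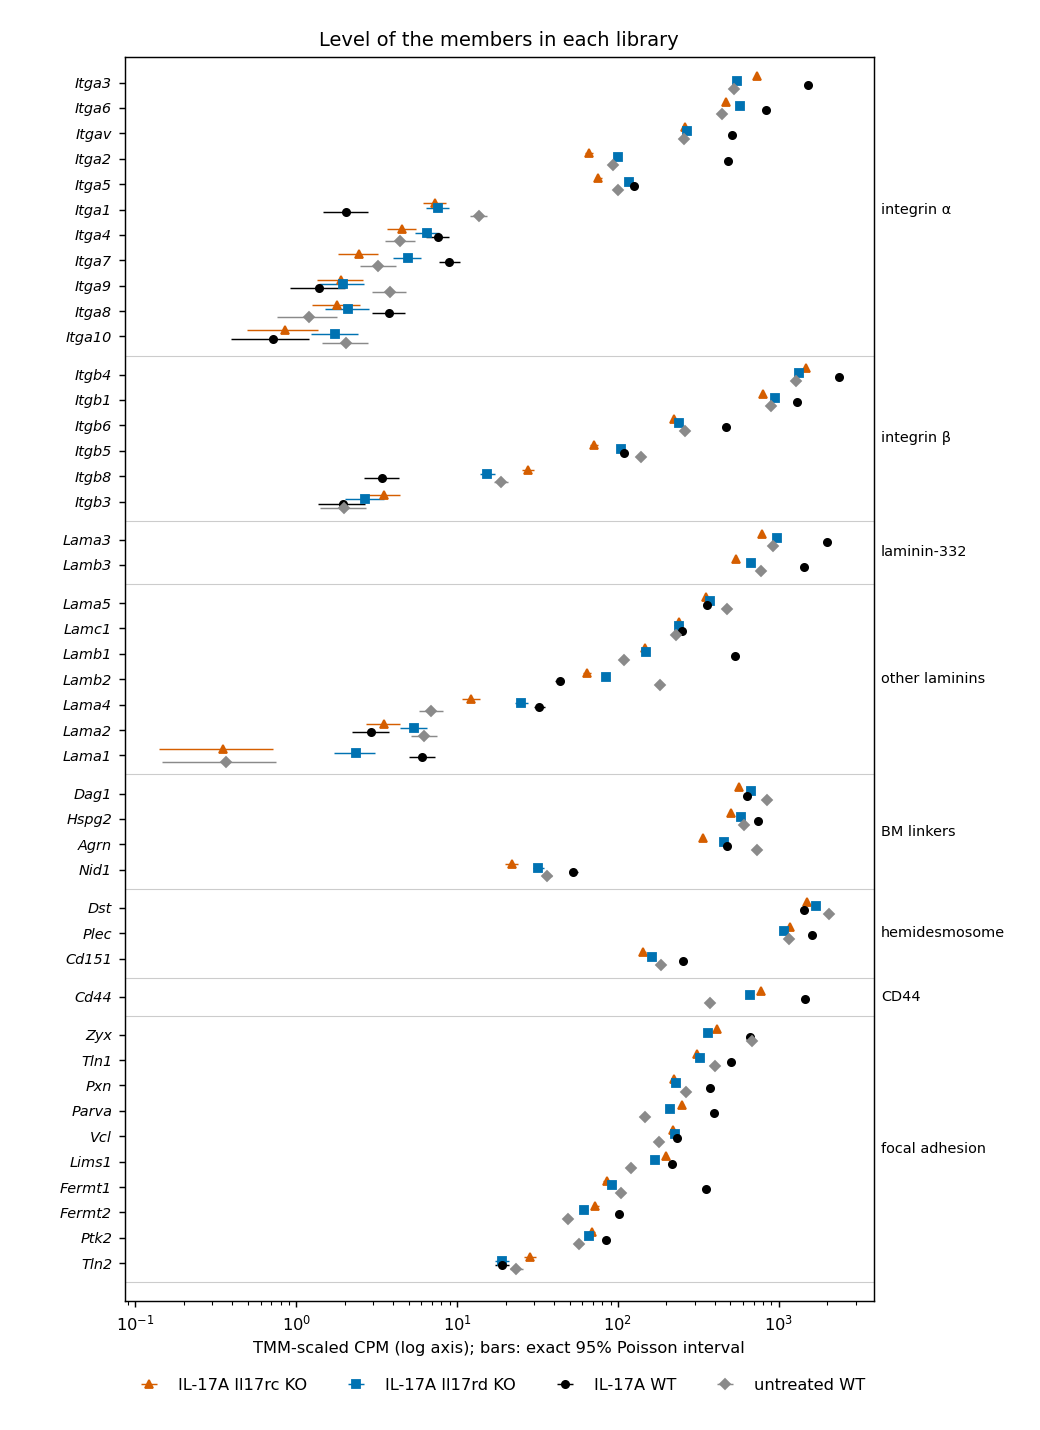
TMM-scaled CPM (log axis) of the members reported here in each library, grouped by role (BM, basement membrane), with bars for the exact 95% Poisson interval of the count. IL-17A WT (black) lies to the right of the other libraries for Itga2, Itga3, Lamb1, Lama3, Lamb3 and Fermt1, and to their left for Itga1, Itgb8 and Lamb2.

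Of 11 integrin alpha subunits, 4 were called higher and 3 lower in IL-17A WT against untreated WT, beside 8.97% and 10.7% of all genes. The 3 include Itga10, which the filter of the deposited tables required to differ between libraries. The largest fold among those called higher was that of Itga2, the alpha subunit of the collagen receptor α2β1 (chr13:114833081-114932100, minus strand; coordinates here and below are GRCm38, GENCODE M21). Itga2 had 65.9 CPM in IL-17A Il17rc KO, 99.5 in IL-17A Il17rd KO, 486 in IL-17A WT and 93.7 in untreated WT. IL-17A WT thus stood alone, 5.18-fold above untreated WT (interval 4.93 to 5.45). Itga2 was 7.37-fold lower in IL-17A Il17rc KO than in IL-17A WT (6.95 to 7.81) and 4.88-fold lower in IL-17A Il17rd KO than in IL-17A WT (4.65 to 5.12). The KO libraries differed from each other by 1.51-fold, with IL-17A Il17rc KO below IL-17A Il17rd KO, which is under the size rule.

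Itga1, the alpha subunit of another collagen receptor, ran the other way. The gene lies 20995 bases from Itga2 on the same strand (chr13:114953096-115101964). Itga1 had 7.28 CPM (146 counts) in IL-17A Il17rc KO, 7.60 (156) in IL-17A Il17rd KO, 2.04 (40) in IL-17A WT and 13.6 (261) in untreated WT. It was 6.66-fold lower in the IL-17A WT library than in untreated WT (4.76 to 9.54). It was 3.56-fold higher in IL-17A Il17rc KO than in IL-17A WT (2.50 to 5.19) and 3.72-fold higher in IL-17A Il17rd KO than in IL-17A WT (2.61 to 5.40). Per unit of length, Itga2 stood 23.6 times above Itga1 in IL-17A Il17rc KO, 34.2 times in IL-17A Il17rd KO, 620 times in IL-17A WT and 18 times in untreated WT.

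Itga3 and Itga6 encode the alpha subunits of the laminin receptors α3β1 and α6β4. Itga3 (chr11:95044474-95076801, minus strand) had 729 CPM in IL-17A Il17rc KO, 547 in IL-17A Il17rd KO, 1521 in IL-17A WT and 529 in untreated WT. The IL-17A WT library was the highest, 2.88-fold above untreated WT (2.81 to 2.94). Itga3 was 2.09-fold lower in IL-17A Il17rc KO than in IL-17A WT (2.05 to 2.13) and 2.78-fold lower in IL-17A Il17rd KO than in IL-17A WT (2.72 to 2.84). Itga6 was called in none of the comparisons, with 471 CPM in IL-17A Il17rc KO, 572 in IL-17A Il17rd KO, 830 in IL-17A WT and 443 in untreated WT. Another annotated gene is near-identical to Itga6, so its reads may have been shared.

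Itgav and Itga5, alpha subunits of receptors for vitronectin and fibronectin, were not called either. Itgav came close to the rule, with 262 CPM in IL-17A Il17rc KO, 268 in IL-17A Il17rd KO, 510 in IL-17A WT and 258 in untreated WT, and its ratio of IL-17A WT to untreated WT was 1.98 (1.91 to 2.05). Itga5 had 75.3, 117, 126 and 99.6 CPM in the same order. In both genes the IL-17A WT library was the highest of the 4.

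The remaining alpha subunits were scarce. Itga7, a laminin-binding subunit best known from muscle, had 49 counts in IL-17A Il17rc KO, 101 in IL-17A Il17rd KO, 175 in IL-17A WT and 62 in untreated WT. Itga8, which pairs with Itgb1 to bind nephronectin, had 36, 43, 74 and 23 counts in that order. Both were called higher in the IL-17A WT library than in untreated WT, Itga7 by 2.76-fold (2.06 to 3.76) and Itga8 by 3.15-fold (1.95 to 5.27), and lower in IL-17A Il17rc KO than in IL-17A WT, Itga7 by 3.66-fold (2.65 to 5.13) and Itga8 by 2.11-fold (1.40 to 3.23).

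Itga9, a tenascin-binding subunit, and Itga10, a collagen-binding one, were called lower in the IL-17A WT library than in untreated WT. Itga9 had 38 counts in IL-17A Il17rc KO, 40 in IL-17A Il17rd KO, 27 in IL-17A WT and 73 in untreated WT, and IL-17A WT was 2.76-fold below untreated WT (1.75 to 4.47). Itga10 had 17, 36, 14 and 39 counts in that order, and IL-17A WT was 2.84-fold below untreated WT (1.51 to 5.67). Itga10 was 2.45-fold higher in IL-17A Il17rd KO than in IL-17A WT (1.29 to 4.92). It passed the filter of the deposited tables only through IL-17A Il17rd KO and untreated WT, so it had to differ between libraries. In IL-17A Il17rc KO against untreated WT, Itga9 was 2.01-fold lower (1.34 to 3.06), a call lost under library totals and when the rule was applied to the log2 ratio with a prior count of 2, and Itga10 2.40-fold lower (1.33 to 4.52). The value of Itga10 is uncertain beyond counting error, because 33.5% of its exonic bases overlap another annotated gene on the same strand. Itga4, with 91, 134, 149 and 85 counts in that order, was called in none of the comparisons.

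Of 6 integrin beta subunits, 1 was called lower in IL-17A WT against untreated WT and 0 higher, beside 10.7% and 8.97% of all genes. The subunit called lower was Itgb8, which pairs with Itgav and is known to bind latent TGF-β (chr12:119158022-119238802, minus strand). Itgb8 had 27.6 CPM in IL-17A Il17rc KO, 15.4 in IL-17A Il17rd KO, 3.42 in IL-17A WT and 18.8 in untreated WT. IL-17A WT was the lowest library, 5.49-fold below untreated WT (4.22 to 7.23). Itgb8 was 8.05-fold higher in IL-17A Il17rc KO than in IL-17A WT (6.24 to 10.5) and 4.51-fold higher in IL-17A Il17rd KO than in IL-17A WT (3.45 to 5.96).

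Itgb6, the other partner of Itgav that binds latent TGF-β in epithelia, had 222 CPM in IL-17A Il17rc KO, 238 in IL-17A Il17rd KO, 467 in IL-17A WT and 262 in untreated WT. It was 2.10-fold lower in IL-17A Il17rc KO than in IL-17A WT (2.03 to 2.18). The ratio in IL-17A Il17rd KO was just under the rule, 1.96-fold below IL-17A WT (1.89 to 2.03). Per unit of length, Itgb6 stood 12.5 times above Itgb8 in IL-17A Il17rc KO, 24 times in IL-17A Il17rd KO, 212 times in IL-17A WT and 21.7 times in untreated WT.

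The other beta subunits were not called in any comparison. Itgb4, the beta subunit of hemidesmosomes, had 1476 CPM in IL-17A Il17rc KO, 1343 in IL-17A Il17rd KO, 2363 in IL-17A WT and 1280 in untreated WT. Its ratio of IL-17A WT to untreated WT was 1.85 (1.82 to 1.88). Itgb1, the beta subunit that most of these alpha subunits use, had 794, 942, 1289 and 899 CPM in that order, a ratio of 1.43 (1.41 to 1.46) between IL-17A WT and untreated WT. Itgb5 had 71.1, 104, 109 and 140 CPM, and Itgb3 had 70, 55, 38 and 38 counts. A near-identical annotated copy of Itgb5 exists, so its reads may have been shared. IL-17A WT was the highest library for Itgb4 and Itgb1, and untreated WT for Itgb5.

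Lama3 and Lamb3 encode chains of laminin-332, the main ligand of hemidesmosomes, and both were highest in IL-17A WT. Lama3 had 785 CPM in IL-17A Il17rc KO, 978 in IL-17A Il17rd KO, 1987 in IL-17A WT and 918 in untreated WT. It was 2.16-fold higher in the IL-17A WT library than in untreated WT (2.13 to 2.20). Compared with IL-17A WT it was 2.53-fold lower in IL-17A Il17rc KO (2.48 to 2.58) and 2.03-fold lower in IL-17A Il17rd KO (2.0 to 2.07), and the last of these calls was lost when library totals were used without TMM factors.

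Lamb3 (chr1:193207699-193343878, plus strand) had 542 CPM in IL-17A Il17rc KO, 672 in IL-17A Il17rd KO, 1442 in IL-17A WT and 775 in untreated WT. The ratio of IL-17A WT to untreated WT was 1.86 (1.82 to 1.90), under the rule. Lamb3 was lower than in IL-17A WT in both knockouts, by 2.66-fold in IL-17A Il17rc KO (2.60 to 2.72) and by 2.15-fold in IL-17A Il17rd KO (2.10 to 2.19). Lamc1, the gamma chain of most other laminins, had 241, 240, 249 and 230 CPM in that order and was not called.

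Of the 7 other laminin chains, 3 were higher and 2 lower in the IL-17A WT library against untreated WT, beside 8.97% and 10.7% of all genes. The 3 include Lama1, which the filter of the deposited tables required to differ between libraries. The beta chains Lamb1 and Lamb2, which take the same place in the laminin trimer, were called in opposite directions. Lamb1 (chr12:31265234-31329644, plus strand) had 147 CPM in IL-17A Il17rc KO, 149 in IL-17A Il17rd KO, 536 in IL-17A WT and 109 in untreated WT. It was 4.90-fold higher in the IL-17A WT library than in untreated WT (4.68 to 5.14). Lamb1 was 3.64-fold lower in IL-17A Il17rc KO than in IL-17A WT (3.50 to 3.80) and 3.59-fold lower in IL-17A Il17rd KO than in IL-17A WT (3.45 to 3.74).

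Lamb2 (chr9:108479736-108490530, plus strand) had 64.1 CPM in IL-17A Il17rc KO, 83.7 in IL-17A Il17rd KO, 43.4 in IL-17A WT and 183 in untreated WT. All 3 treated libraries lay below untreated WT, IL-17A Il17rc KO by 2.85-fold (2.68 to 3.04), IL-17A Il17rd KO by 2.18-fold (2.06 to 2.31) and IL-17A WT by 4.21-fold (3.91 to 4.55). Neither KO reached the rule against IL-17A WT, with ratios of 1.48 (1.35 to 1.61) for IL-17A Il17rc KO and 1.93 (1.78 to 2.10) for IL-17A Il17rd KO. The last of these was called under library totals. Per unit of length, the ratio of Lamb1 to Lamb2 was 1.41 in IL-17A Il17rc KO, 1.09 in IL-17A Il17rd KO, 7.57 in IL-17A WT and 0.367 in untreated WT. Lamb2 was thus the more abundant of the pair in untreated WT, and Lamb1 in the other libraries.

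Lama4, an alpha chain typical of vessel and muscle basement membranes, had 12.2 CPM in IL-17A Il17rc KO, 25.1 in IL-17A Il17rd KO, 32.4 in IL-17A WT and 6.89 in untreated WT. It was 4.71-fold higher in the IL-17A WT library than in untreated WT (3.90 to 5.73). Compared with IL-17A WT, it was 2.67-fold lower in IL-17A Il17rc KO (2.30 to 3.10), and the ratio in IL-17A Il17rd KO was 1.29-fold below (1.15 to 1.45). The IL-17A Il17rd KO library was 3.65-fold above untreated WT (3.01 to 4.45).

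Lama1, an alpha chain best known from embryonic basement membranes, had the lowest mean FPKM of the members (0.239) and their largest fold. It passed the filter of the deposited tables only through IL-17A Il17rd KO and IL-17A WT, so it had to differ from the other libraries. Lama1 had 7 counts in IL-17A Il17rc KO, 48 in IL-17A Il17rd KO, 119 in IL-17A WT and 7 in untreated WT. It was 16.7-fold higher in the IL-17A WT library than in untreated WT, with a wide interval of 7.84 to 42.3. It was 17.4-fold lower in IL-17A Il17rc KO than in IL-17A WT (8.20 to 44.3) and 2.60-fold lower in IL-17A Il17rd KO than in IL-17A WT (1.85 to 3.72). IL-17A Il17rd KO was also 6.40-fold above untreated WT (2.88 to 16.8), so its level lay between those of the other libraries.

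The 3 endothelial markers in the tables, of 8 listed, summed to 15.6 CPM in IL-17A Il17rc KO, 16.7 in IL-17A Il17rd KO, 24.8 in IL-17A WT and 14.6 in untreated WT. Cdh5, Tek, Tie1, Cldn5 and Emcn were not used here. The endothelial sum was highest in IL-17A WT, as were Lama4 and Lama1, and its part in their values was not tested. Of the 3 endothelial markers, Kdr alone was called higher in the IL-17A WT library than in untreated WT. Pecam1 was also highest in IL-17A WT. Egfl7 was not, with 7.73 CPM in IL-17A Il17rc KO, 6.18 in IL-17A Il17rd KO, 7.20 in IL-17A WT and 4.17 in untreated WT. Lama2, the alpha chain of muscle and nerve basement membranes, had 70 counts in IL-17A Il17rc KO, 110 in IL-17A Il17rd KO, 57 in IL-17A WT and 120 in untreated WT. It was 2.15-fold lower in the IL-17A WT library than in untreated WT (1.56 to 3.0). The sum of the fibroblast markers was also lowest in IL-17A WT. Of the 12, 9 were called lower than in untreated WT and 0 higher, beside 10.7% and 8.97% of all genes. Not every marker followed the sum. Fbn1 had 50 counts in IL-17A Il17rc KO, 49 in IL-17A Il17rd KO, 72 in IL-17A WT and 60 in untreated WT. Col5a2 was lowest in IL-17A Il17rc KO. The part of fibroblasts in the values of Lama2, Itga1 and Lamb2 was not tested. Lama5, the widespread alpha chain of adult epithelia, was not called, with 351 CPM in IL-17A Il17rc KO, 376 in IL-17A Il17rd KO, 357 in IL-17A WT and 477 in untreated WT.

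Shares of summed FPKM give the make-up of each class of chain. Itga2 made up 3.98% of all integrin alpha FPKM in IL-17A Il17rc KO, 6.15% in IL-17A Il17rd KO, 13.5% in IL-17A WT and 6.45% in untreated WT. Lama3 made up 69.5, 71.8, 84.1 and 66.6% of the laminin alpha chains in that order, and Lama5 29.3, 26.1, 14.3 and 32.6%. Among the beta chains, Lamb3 held between 74.1 and 78.1% in the 4 libraries, while Lamb1 had 13.8, 11.5, 19.3 and 6.96% and Lamb2 9.81, 10.6, 2.55 and 19.0%. Itgb1 and Itgb4 together led the integrin beta subunits everywhere, Itgb1 with 42.2, 47.2, 42.0 and 45.6% and Itgb4 with 45.7, 39.2, 44.8 and 37.8%. Per unit of length the ratio of Itgb4 to Itgb1 was 1.08 in IL-17A Il17rc KO, 0.830 in IL-17A Il17rd KO, 1.07 in IL-17A WT and 0.828 in untreated WT. These shares concern RNA and say nothing of assembled proteins.

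**Figure D3:**
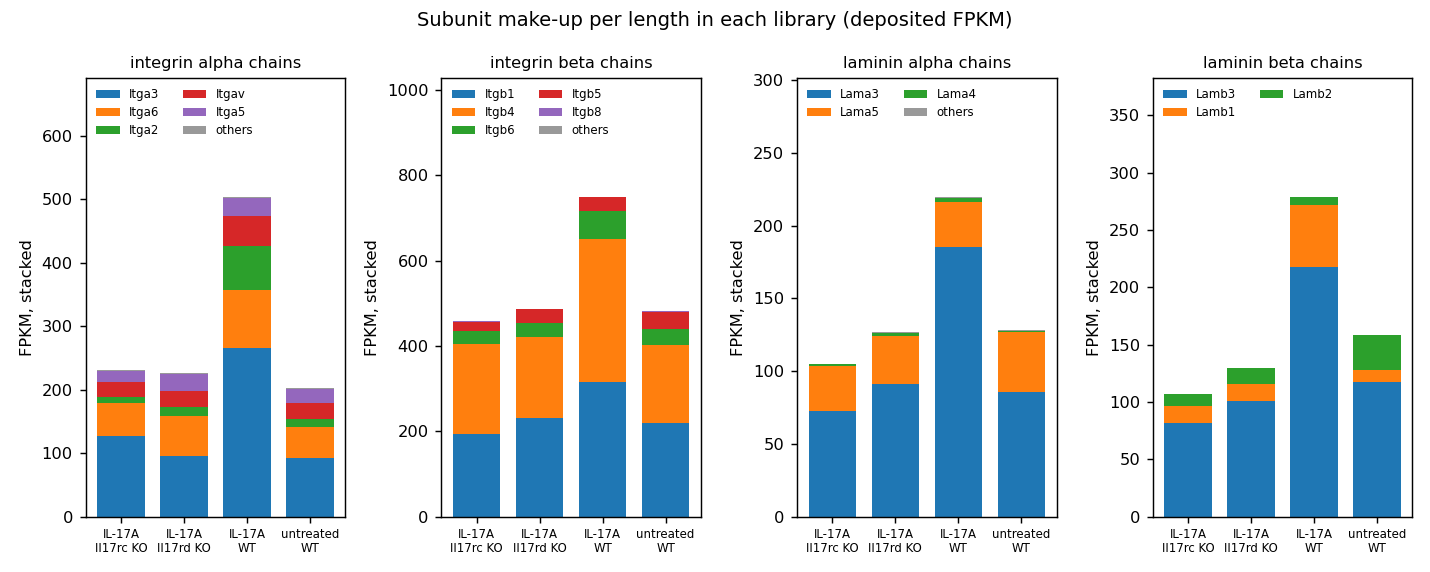
Deposited FPKM of integrin alpha, integrin beta, laminin alpha and laminin beta chains, stacked for each library (y axis, FPKM; 1 library per bar, so there are no error bars). The integrin alpha total is 232 in IL-17A Il17rc KO, 226 in IL-17A Il17rd KO, 504 in IL-17A WT and 203 in untreated WT, and the Lamb1 layer is thickest and the Lamb2 layer thinnest in IL-17A WT.

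None of the 3 hemidesmosome proteins of the cytoplasm and membrane was called in any of the 6 comparisons. Plec encodes plectin, which links Itgb4 to keratin, and had 1172 CPM in IL-17A Il17rc KO, 1084 in IL-17A Il17rd KO, 1617 in IL-17A WT and 1151 in untreated WT. Dst, whose epidermal isoform is the bullous pemphigoid antigen BPAG1, had 1503, 1699, 1443 and 2045 CPM in that order. Cd151, a tetraspanin bound to α3β1 and α6β4, had 144, 162, 255 and 186 CPM. IL-17A WT was the highest library for Plec and Cd151 and the lowest for Dst, and the ratios of IL-17A WT to untreated WT lay between -0.50 and 0.49 on the log2 scale.

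None of the 4 linkers of the basement membrane was called in IL-17A WT against untreated WT, where 8.97% of all genes were higher and 10.7% lower. Nid1 encodes nidogen, which joins laminin to collagen IV. Nid1 had 21.9 CPM in IL-17A Il17rc KO, 31.9 in IL-17A Il17rd KO, 52.8 in IL-17A WT and 36.2 in untreated WT, and IL-17A Il17rc KO was 2.41-fold below IL-17A WT (2.15 to 2.70). Nid1 has a near-identical annotated copy elsewhere, so its counts are uncertain. Agrn encodes agrin, a heparan sulfate proteoglycan that binds laminin and dystroglycan, and had 339, 454, 474 and 733 CPM in the same order. It was highest in untreated WT, and IL-17A Il17rc KO was 2.16-fold below untreated WT (2.10 to 2.23). Perlecan (Hspg2) had 505, 579, 747 and 609 CPM and dystroglycan (Dag1) 567, 672, 635 and 845 CPM, with no call.

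Cd44, the receptor for hyaluronan and an abundant surface protein of basal keratinocytes, had 779 CPM in IL-17A Il17rc KO, 664 in IL-17A Il17rd KO, 1461 in IL-17A WT and 375 in untreated WT (chr2:102811141-102901665, minus strand). Both KO libraries stood between IL-17A WT and untreated WT. Cd44 was 3.90-fold higher in the IL-17A WT library than in untreated WT (3.80 to 4.00). It was 2.20-fold lower in IL-17A Il17rd KO than in IL-17A WT (2.16 to 2.25), and IL-17A Il17rc KO, 1.88-fold below IL-17A WT (1.84 to 1.91), missed the rule. Against untreated WT, IL-17A Il17rc KO was 2.08-fold higher (2.02 to 2.14) and IL-17A Il17rd KO 1.77-fold higher (1.72 to 1.82), of which the rule calls the first. The counts do not separate the splice forms of Cd44.

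Of 10 focal adhesion proteins, 3 were higher and 0 lower in the IL-17A WT library against untreated WT, beside 8.97% and 10.7% of all genes. The strongest was Fermt1, which encodes kindlin-1, the epithelial activator of integrins that is lost in Kindler syndrome (chr2:132904389-132945906, minus strand). Fermt1 had 85.0 CPM in IL-17A Il17rc KO, 91.2 in IL-17A Il17rd KO, 353 in IL-17A WT and 105 in untreated WT. IL-17A WT stood 3.36-fold above untreated WT (3.20 to 3.53), and the other 3 libraries lay close together. Compared with IL-17A WT, Fermt1 was 4.16-fold lower in IL-17A Il17rc KO (3.94 to 4.39) and 3.87-fold lower in IL-17A Il17rd KO (3.68 to 4.08).

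Fermt2, which encodes the broadly expressed kindlin-2, had 72.2 CPM in IL-17A Il17rc KO, 61.2 in IL-17A Il17rd KO, 101 in IL-17A WT and 48.8 in untreated WT. It was 2.07-fold higher in the IL-17A WT library than in untreated WT (1.92 to 2.24) and was called in neither KO against IL-17A WT. The ratio of Fermt1 to Fermt2 per unit of length was 0.774 in IL-17A Il17rc KO, 0.980 in IL-17A Il17rd KO, 2.29 in IL-17A WT and 1.42 in untreated WT. Parva, a partner of integrin-linked kinase that binds actin, had 249, 210, 398 and 148 CPM in that order and was 2.69-fold higher in the IL-17A WT library than in untreated WT (2.58 to 2.81). Parva has a near-identical annotated copy. Lims1 encodes PINCH, of the same complex, and had 198, 171, 218 and 120 CPM without a call.

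The structural core of focal adhesions was called in none of the 6 comparisons. Talin (Tln1) had 308 CPM in IL-17A Il17rc KO, 324 in IL-17A Il17rd KO, 502 in IL-17A WT and 403 in untreated WT, and its scarcer paralog Tln2 had 28.5, 19.0, 19.0 and 23.4 CPM in that order. Paxillin (Pxn) had 222, 229, 371 and 266 CPM and focal adhesion kinase (Ptk2) 68.5, 66.2, 84.6 and 57.0 CPM. Ptk2 has a near-identical annotated copy, so its reads may have been shared. Vinculin (Vcl) had 219, 225, 232 and 181 CPM, and 25.5% of its exonic bases overlap a gene on the other strand. Zyxin (Zyx) had 411, 362, 665 and 678 CPM, so here both WT libraries were high and both KO libraries low, by up to 1.87-fold in IL-17A Il17rd KO against untreated WT (1.82 to 1.93). Its log2 ratio of IL-17A WT to untreated WT was -0.03.

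**Figure D4:**
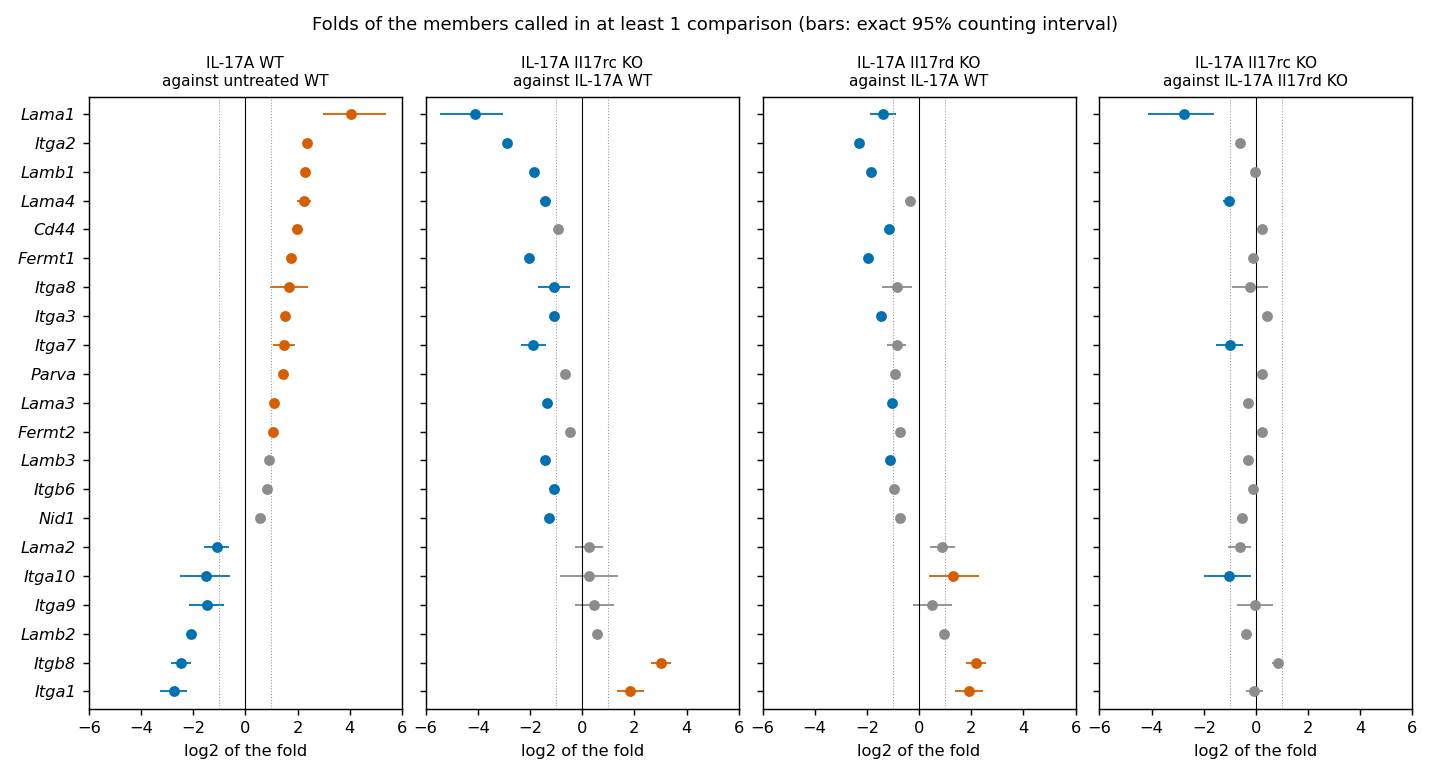
Log2 of the fold (x axis; dotted lines at 2-fold) of the 21 members called in at least 1 of the 4 comparisons shown, with bars for the exact 95% counting interval, which covers counting error only; orange is called higher, blue called lower and grey neither. Itga2, Lamb1 and Fermt1 lie right of the lines in IL-17A WT against untreated WT and left of them in both KO libraries against IL-17A WT, and Itga1 and Itgb8 do the reverse.

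Between the knockouts 4 members (8.89%) were called, beside 2.75% of all genes called lower and 1.49% called higher. Of the 4, Lama1 and Itga10 passed the deposited filter through IL-17A Il17rd KO and not through IL-17A Il17rc KO. The filter thus favoured their calls, which are no evidence about the members. In IL-17A Il17rc KO against IL-17A Il17rd KO, Lama1 was 6.70-fold lower (3.01 to 17.5), Lama4 2.06-fold lower (1.77 to 2.41), Itga10 2.07-fold lower (1.13 to 3.93) and Itga7 2.01-fold lower (1.42 to 2.89). Lama1, Itga10 and Itga7 rest on at most 101 counts per library, and the calls of Itga10 and Itga7 were lost when the rule was applied to the log2 ratio with a prior count of 2. The largest ratio the other way was that of Itgb8, 1.79-fold higher in IL-17A Il17rc KO (1.55 to 2.06), without a call. In the same comparison, the log2 ratio was -0.02 for Lamb1, -0.10 for Fermt1, -0.06 for Itga1 and -0.59 for Itga2, against -2.44 for Lama1 and 0.83 for Itgb8. Ddx3y had 749 counts in IL-17A Il17rc KO, against 2 in IL-17A Il17rd KO, and the part of sex in these differences was not tested.

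Other genes of the same structures were described through 4 lists. Of 26 basement membrane and hemidesmosome genes, 21 were in the tables, and in IL-17A WT against untreated WT 3 were higher (Col4a1, Col4a2 and Col18a1) and 6 lower (Col17a1, Col4a5, Col4a6, Ntn4, Fras1 and Tgfbi). The median log2 ratio was -0.29. Among all genes tested, 8.97% were higher and 10.7% lower in this comparison. Col4a1 and Col4a2, neighbouring genes for the common chains of collagen IV, were 2.56-fold (2.48 to 2.65) and 2.57-fold (2.47 to 2.67) higher in IL-17A WT. Col4a1 had 3740 counts in IL-17A Il17rc KO, 5658 in IL-17A Il17rd KO, 12841 in IL-17A WT and 4906 in untreated WT. Fras1, which anchors epidermis to dermis in the embryo, had 659, 1754, 116 and 2444 counts in that order, and was 21.5-fold lower in the IL-17A WT library than in untreated WT (17.8 to 26.1). Col17a1, the collagen of hemidesmosomes, had 66243, 101617, 65044 and 130305 counts and was 2.05-fold lower in the IL-17A WT library than in untreated WT (2.03 to 2.06).

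In the knockouts against IL-17A WT the same list held calls in both directions. IL-17A Il17rc KO had 3 higher (Col4a6, Fras1 and Tgfbi) and 5 lower (Col4a1, Col4a2, Col4a3, Col4a4 and Col18a1), with a median of -0.01. IL-17A Il17rd KO had 4 higher (Col4a6, Fras1, Frem2 and Tgfbi) and 4 lower (Col4a1, Col4a2, Col4a3 and Col18a1), with a median of 0.14. Between the knockouts, Col4a3, Col4a4 and Fras1 were lower in IL-17A Il17rc KO, Fras1 by 2.60-fold (2.37 to 2.85). In that comparison 2.75% of all genes were lower and 1.49% higher.

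Among 38 further focal adhesion genes in the tables, 5 were higher in the IL-17A WT library than in untreated WT (Actn1, Tes, Tgfb1i1, Nedd9 and Lasp1) and 3 lower (Tns1, Sorbs3 and Kank1), with a median of 0.15. For all genes the shares were 8.97% higher and 10.7% lower. Tns1, a tensin that binds integrin tails, had 25.2 CPM in IL-17A Il17rc KO, 47.4 in IL-17A Il17rd KO, 22 in IL-17A WT and 181 in untreated WT. Kank1, a protein of the rim of focal adhesions that binds talin, had 190, 143, 58.7 and 283 CPM in that order. Against IL-17A WT, IL-17A Il17rc KO had 1 of the 38 higher and 6 lower, and IL-17A Il17rd KO had 2 higher and 2 lower. For all genes the shares were 6.22% higher and 4.84% lower in IL-17A Il17rc KO, and 6.27% and 3.73% in IL-17A Il17rd KO. Between the knockouts 0 of 38 were called, where 1.49% of all genes were higher and 2.75% lower.

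Of 20 matrix ligands tested, 6 were higher and 6 lower in the IL-17A WT library against untreated WT, with a median of 0.08. The shares of all genes in this comparison were 8.97% higher and 10.7% lower. Cyr61, a secreted ligand of integrins, had 109 CPM in IL-17A Il17rc KO, 149 in IL-17A Il17rd KO, 708 in IL-17A WT and 150 in untreated WT. Has2, an enzyme that makes the Cd44 ligand hyaluronan, had 51, 73, 143 and 18 counts in that order and was 7.78-fold higher in the IL-17A WT library than in untreated WT (4.75 to 13.5). Col1a1, Col1a2 and Col3a1, which are ligands of Itga1 and Itga2 and also stand in the fibroblast marker list, were lower in the IL-17A WT library than in untreated WT. Col1a2 had 75, 134, 9 and 171 counts. Against IL-17A WT, 4 ligands were higher and 6 lower in IL-17A Il17rc KO, and 5 higher and 4 lower in IL-17A Il17rd KO. In IL-17A Il17rc KO against IL-17A Il17rd KO, 0 ligands were higher and 2 lower (Postn and Has3), beside 1.49% and 2.75% of all genes.

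Of 23 integrin-associated membrane genes tested, 5 were higher in the IL-17A WT library than in untreated WT (Epcam, Rab21, Rap1b, Lgals1 and Plaur) and 1 lower (Lgals3). Among all genes, 8.97% were higher and 10.7% lower there. Plaur, the urokinase receptor, which binds integrins at the cell surface, had 22.1 CPM in IL-17A Il17rc KO, 11.5 in IL-17A Il17rd KO, 93.7 in IL-17A WT and 6.00 in untreated WT. It was 15.6-fold higher in the IL-17A WT library than in untreated WT (12.9 to 19.0). Epcam, Lgals1 and Plaur were lower in each KO than in IL-17A WT, with 0 of the 23 higher. Among all genes, 4.84% were lower and 6.22% higher in IL-17A Il17rc KO, and 3.73% and 6.27% in IL-17A Il17rd KO. Plaur was 4.24-fold lower in IL-17A Il17rc KO (3.82 to 4.72) and 8.12-fold lower in IL-17A Il17rd KO (7.09 to 9.34). Between the knockouts 0 of 23 were called, where 1.49% of all genes were higher and 2.75% lower.

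Markers of the state of differentiation of the cells also differed between the libraries. Of 10 markers of differentiated keratinocytes, 9 were lower in the IL-17A WT library than in untreated WT, beside 10.7% of all genes. The list's median log2 ratio was -3.44. Again 9 of these markers were higher in each KO than in IL-17A WT, beside 6.22% of all genes for IL-17A Il17rc KO and 6.27% for IL-17A Il17rd KO. The medians were 2.95 for IL-17A Il17rc KO and 2.61 for IL-17A Il17rd KO. Between the knockouts 0 were called, where 1.49% of all genes were higher and 2.75% lower. Krt1, a keratin of the suprabasal layers, had 12388 counts in IL-17A Il17rc KO, 22536 in IL-17A Il17rd KO, 756 in IL-17A WT and 48645 in untreated WT. Hemidesmosome and laminin-332 genes belong to the basal layer, and whether the share of basal cells accounts for their levels was not tested. Krt5 and Krt14, keratins of that layer, were not called, with log2 ratios of -0.40 and -0.25 in IL-17A WT against untreated WT. Of the 8 keratinocyte markers, Krt15 and Perp were called lower in that comparison and 0 higher. Krt15, another keratin, had 195 counts in IL-17A Il17rc KO, 137 in IL-17A Il17rd KO, 51 in IL-17A WT and 497 in untreated WT. It was called higher in each KO than in IL-17A WT.

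Among other cell types, melanocyte markers summed to 2088 CPM in IL-17A Il17rc KO, 2260 in IL-17A Il17rd KO, 1640 in IL-17A WT and 2489 in untreated WT, with all 8 in the tables. Of 10 immune markers 4 were in the tables, summing to 6.58, 23.0, 24.5 and 52.9 CPM in that order, and Ptprc, Cd3e, Cd207, Cd74, Tyrobp and Fcer1g were not used here. Smooth muscle and pericyte markers (3 of 6) summed to 221, 358, 282 and 537 CPM, nearly all of it Acta2, with 219, 354, 275 and 533 CPM. Tagln, with 27, 55, 105 and 35 counts, was called higher in the IL-17A WT library than in untreated WT, and Tagln and Cnn1 were lower in each KO than in IL-17A WT. Schwann cell markers (3 of 5) summed to 72.8, 84.6, 91.9 and 126 CPM. Dcn, Lum, Dpt and Mfap5 of the fibroblast list were not used here either. No marker in the tables was at 0, and the part of these cells in the members' values was not tested.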

How the data were processed

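RNA was sequenced from 4 libraries of mouse primary keratinocytes, 1 per group. Per the submitters' processing notes, reads were handled with HISAT2, featureCounts of Subread, edgeR and Trim Galore 0.4.4, with build mm10; settings, annotation and strand were not given in the sources used here. The authors deposited unnormalized whole-number counts for each gene, and all 13102 genes exceed 1 CPM in at least 2 libraries. The FPKM values deposited by the authors imply library sizes of 1.05 (IL-17A Il17rc KO), 1.07 (IL-17A Il17rd KO) and 1.02 (IL-17A WT) times that of untreated WT, equal to the TMM-scaled sizes.

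TMM factors from edgeR 4.0.16 scaled the counts of all libraries, and CPM are counts over scaled sizes. Ratios carry exact conditional binomial (Clopper-Pearson) 95% intervals and levels exact Poisson intervals; with no molecular identifiers, reads need not be separate molecules, so both cover counting error only. A prior count of 2 entered each log2 ratio. The size rule was applied to all 12934 genes that averaged 1 CPM or more. Alternatives were library totals, size factors of DESeq2 1.42.0, no filter, a prior count of 0.5, a 1.5-fold rule, a stricter interval rule and FPKM ratios. Named are the members (1 member is not reported here), with values in every library for those called in the 4 main comparisons, and up to 4 genes per companion list; a few others were named after their values were seen. Symbols were matched to GENCODE M21, and near-identical copies were sought with BLAST+ 2.17.0 (at least 95% identity over at least 50% of either sequence). The members and lists were chosen with earlier results of these data known.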

Additional observations from a re-analysis of the deposited data

How the results depend on the processing

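No called member ratio changed direction under the alternatives tried. For ratios that were not called, direction was not compared. Of 270 ratios of members, 55 were called, and DESeq2 size factors left all 270 on the same side of the rule. A prior count of 0.5 and the deposited FPKM values did so by construction, since the rule uses no prior count and the FPKM values imply the TMM-scaled sizes. Library totals without TMM factors left 266 on the same side, lost Lama3 (IL-17A Il17rd KO against IL-17A WT) and Itga9 (IL-17A Il17rc KO against untreated WT), and added Itgav (IL-17A WT against untreated WT) and Lamb2 (IL-17A Il17rd KO against IL-17A WT). They moved the median of all genes by up to 0.11 on the log2 scale. All 45 members pass the filter on low counts, so leaving it out cannot move their counts.

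Under a 1.5-fold rule 61 ratios were added. In members called higher, with the share of all genes in brackets, the counts were then 20 in IL-17A WT against untreated WT (17.9%), 4 in IL-17A Il17rc KO against IL-17A WT (12.3%), 5 in IL-17A Il17rd KO against IL-17A WT (12.1%) and 2 in IL-17A Il17rc KO against IL-17A Il17rd KO (5.27%), plus 5 in each KO against untreated WT (15.6% for IL-17A Il17rc KO, 11.5% for IL-17A Il17rd KO). In members called lower, they were 26 in IL-17A Il17rc KO against IL-17A WT (9.78%), 21 in IL-17A Il17rd KO against IL-17A WT (8.31%) and 7 in IL-17A Il17rc KO against IL-17A Il17rd KO (6.94%), with 9 in IL-17A Il17rc KO against untreated WT (16.1%) and 5 in IL-17A Il17rd KO against untreated WT (10.1%). In IL-17A WT against untreated WT, Agrn (1.55-fold lower) joined the 6 members called lower by the 2-fold rule, beside 18.9% of all genes. With the whole interval required past 2-fold, 14 calls were lost, all of them of Fermt2, Itga7, Itga8, Itga9, Itga10, Lama1, Lama2, Lama3 or Lama4. That left 3 members lower in IL-17A WT against untreated WT (7.34% of all genes), 1 lower in IL-17A Il17rc KO against IL-17A Il17rd KO (1.13%) and 2 lower in IL-17A Il17rc KO against untreated WT (3.52%). The rule applied to the log2 ratio with its prior count, an alternative chosen after seeing the data, left 2 members lower in IL-17A Il17rc KO against IL-17A Il17rd KO, and also lost Itga9 in IL-17A Il17rc KO against untreated WT. These rules differ in strictness by construction.

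No paired analysis was possible because each group has 1 library. For the same reason no library was left out, and the spread between dishes is unknown. Depth limits the members with fewer than 100 counts, whose intervals are wide.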
